A study of Mus musculus with 5 samples.

Results

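Slc7a2, Arg1 and Arg2 encode an arginine transporter and the 2 arginases, and were followed through 21 h of lipopolysaccharide (LPS) in cultured mouse macrophages. Their probes were taken as all those annotated with exactly one of these symbols, which gave 4 of 19828 probes and 3 of the 8637 genes with a value on all 5 arrays. Slc7a2 and Arg1 had 1 probe each and Arg2 had 2. All 4 probes had a value on every array. A further probe carried the symbols Vti1b and Arg2 together and was kept apart. The genes of Arg2 and Vti1b overlap in the annotation of assembly GRCm38.p6.

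The study used macrophages grown from the bone marrow of C3H/ARC mice and hybridised their RNA to 5 two-colour arrays, 1 per time point. The cells had been differentiated with human CSF-1, which drives this lineage, and were unstimulated (0 h) or exposed to 10 µg per ml of S. minnesota LPS for 0.5, 2, 7 or 21 h. In the other channel of each array was embryonic RNA (C57BL6/J, whole, day 17.5), which served as a common reference. The labels do not say whether RNA of several mice or cultures was pooled. With 1 array per time there was no replicate check and no p-value can be given, and precision is limited by the number of arrays.

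Arginine enters macrophages mainly through cationic amino acid transporters, of which the product of Slc7a2 (CAT-2) is known as the inducible one. Inside the cell the amino acid is shared between nitric oxide synthase, which makes nitric oxide and citrulline, and the arginases, which split it into ornithine and urea. Arg1 encodes the cytosolic enzyme, abundant in liver and used as a marker of alternatively activated mouse macrophages, and Arg2 encodes the mitochondrial enzyme found in many tissues. Ornithine in turn feeds the synthesis of polyamines and proline.

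Values are log2 ratios of macrophage to embryo RNA, with the median of each array subtracted, so that 0 stands for a typical probe of that array. The direction of the ratio is not stated in the labels and is likely macrophage over embryo. At 0 h, 7 of 9 measured macrophage markers lay above the array median and 0 of 19 measured whole-embryo markers did. The median of the macrophage markers ran from 1.61 to 2.09 over the arrays and that of the embryo markers from -2.20 to -1.73. With the opposite direction every sign below would turn. The log base is not stated either and was read as 10. If it was 2, every log2 value is 3.32 times too large, and of the 12 changes from 0 h only that of Arg1 at 21 h (then 1.22) would pass 2-fold. A change is the difference in log2 ratio between an LPS array and the 0 h array, and 2-fold is used as a rule of size. As a yardstick of disagreement between probes, the SD over probes of one gene was pooled over the 3015 genes with several probes. For changes from 0 h it was 0.67 at 0.5 h, 0.97 at 2 h, 0.51 at 7 h and 0.47 at 21 h. Differences under 2 such SDs are described here as within the spread. This SD holds no variation between repeat arrays, labellings or cultures. A difference beyond the spread can therefore still lie within that variation.

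High ratios on the 0.5 h and 2 h arrays clustered by probe number. Of 207 blocks of 96 consecutive probe numbers, 94 were high in at least 10% of their probes, by the rule of 2-fold over 0 h, on the 0.5 h or the 2 h array. These are called affected blocks below. The probes of Slc7a2 and the first probe of Arg2 lay outside them, while the probe of Arg1 and the second probe of Arg2 lay inside. Over probes outside these blocks alone (1457 genes) the pooled SD of changes was 0.42, 0.55, 0.50 and 0.43 in order of time, and for Slc7a2 both yardsticks are given. The blocks were marked by high values at 0.5 h or 2 h, so leaving them out narrows the SD at these times by selection. By the same selection it lowers the share of genes at least 2-fold higher at these times.

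The 3 genes followed different courses. Slc7a2 stood above its 0 h value by more than the spread over probes at 7 h and 21 h, and Arg1 at 21 h alone. The 2 h change of Slc7a2 was 1.14 pooled SDs over all probes and 2.01 outside affected blocks. Under quantile normalization its log2 change at 2 h was 0.87, below 2-fold. The 2 probes of Arg2 disagreed at 0.5 h and 2 h and lay near their 0 h values later. At 21 h the Slc7a2 signal was 5.56-fold and the Arg1 signal 16.7-fold that at 0 h, both on a single probe, whereas Arg2 stood at 1.17-fold (log2 change 0.23, SD over 2 probes 0.28). In macrophage RNA from whole cultures, more cells of an expressing type and more RNA per cell cannot be told apart.

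**Figure D1:**
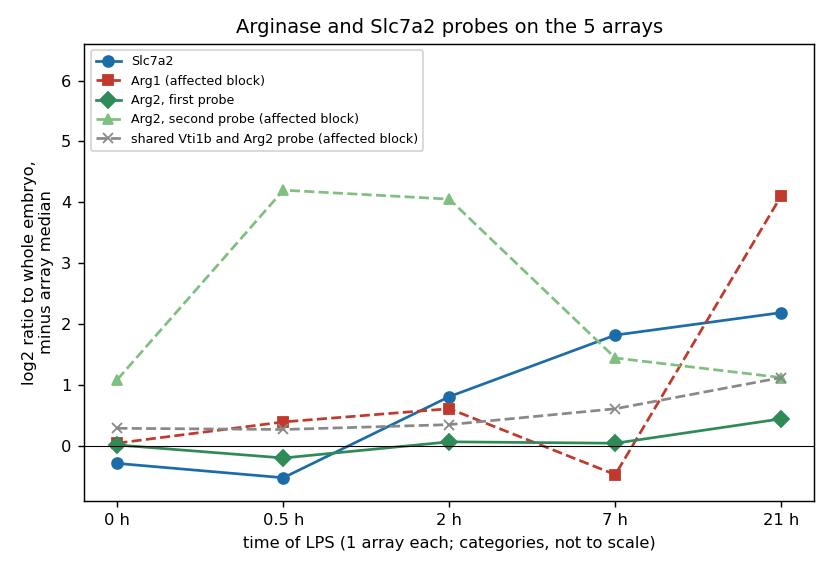
Log2 ratio to whole embryo minus the array median (vertical axis) on the 5 arrays in order of LPS time (horizontal axis, categories), 1 line per probe; dashed lines mark probes in affected blocks. The line of Slc7a2 lies lowest at 0.5 h (-0.52) and highest at 21 h (2.19), that of Arg1 leaves the range between -0.47 and 0.61 only at 21 h (4.11), and the second Arg2 probe is high at 0.5 h and 2 h (4.2 and 4.05) while the first stays between -0.20 and 0.45.

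The transporter gene Slc7a2 had log2 ratios of -0.29 at 0 h, -0.52 at 0.5 h, 0.81 at 2 h, 1.82 at 7 h and 2.19 at 21 h. The unstimulated and 0.5 h arrays thus showed it below the typical probe and the 3 later arrays above it, with the highest value on the last. Among all genes its ratio stood at percentile 30.2 at 0 h and at percentile 98.7 at 21 h.

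The log2 change of Slc7a2 from 0 h was -0.24 at 0.5 h, 1.10 at 2 h (2.14-fold), 2.11 at 7 h (4.31-fold) and 2.48 at 21 h. In units of the pooled SD over all probes these are 0.349, 1.14, 4.10 and 5.26, and by the SD outside affected blocks 0.556, 2.01, 4.24 and 5.70. The changes at 7 h and 21 h exceed the spread by both yardsticks and that at 0.5 h by neither, while that at 2 h lies at the limit of 2 SDs by the narrower one. Ordered by level, the arrays ran 0.5 h, 0 h, 2 h, 7 h and 21 h. By the SD over all probes no 2 neighbours in that order differed by more than the spread, and by the SD outside affected blocks only 2 h and 0 h did. The 7 h value exceeded that at 2 h by 1.01 (0.976 pooled SDs, or 1.83 outside affected blocks), and the 21 h value exceeded that at 7 h by 0.37 (0.929 or 0.957). Among the other pairs, 7 h against 0.5 h (2.34) and 21 h against 0.5 h (2.71) were beyond the spread by both yardsticks. By the SD outside affected blocks alone, so were 2 h against 0.5 h (1.33, 2.61 SDs) and 21 h against 2 h (1.38, 2.55 SDs).

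By size of change, Slc7a2 ranked 972nd from the top of 8637 genes at 2 h, 46th at 7 h and 16th at 21 h. Without the affected blocks it ranked 220th, 23rd and 9th of 5996 genes at these times. The share of all genes past 2-fold upward was 12.4% at 2 h (4.22% without the affected blocks), 4.08% at 7 h (4.52%) and 3.05% at 21 h (2.55%). Leaving out blocks marked by high early values lowers the 2 h share and brings the 2 h rank nearer the top by selection. Under quantile normalization the Slc7a2 change at 2 h was 0.87, below 2-fold.

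Most probes in the block of Slc7a2 were less than 2-fold above 0 h at 2, 7 and 21 h. Its 89 measured probes had a median change of -0.14 at 2 h, -0.035 at 7 h and 0.033 at 21 h, and the Slc7a2 probe ranked 6th, 4th and 1st among them. The share of these probes at least 2-fold higher was 6.74%, 8.99% and 6.74%, where 12.4%, 4.08% and 3.05% of all genes were. The first are shares of single probes and the second of gene means. A low 2 h share in this block follows from the rule that left it unmarked. Of 8637 genes 57 (0.660%) were at least 2-fold higher at 2, 7 and 21 h and within 2-fold of 0 h at 0.5 h, a course defined after the values of Slc7a2 were seen. In 13 of these the change also increased at each time, and Slc7a2 had the 4th largest change at 21 h among the 13.

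**Figure D2:**
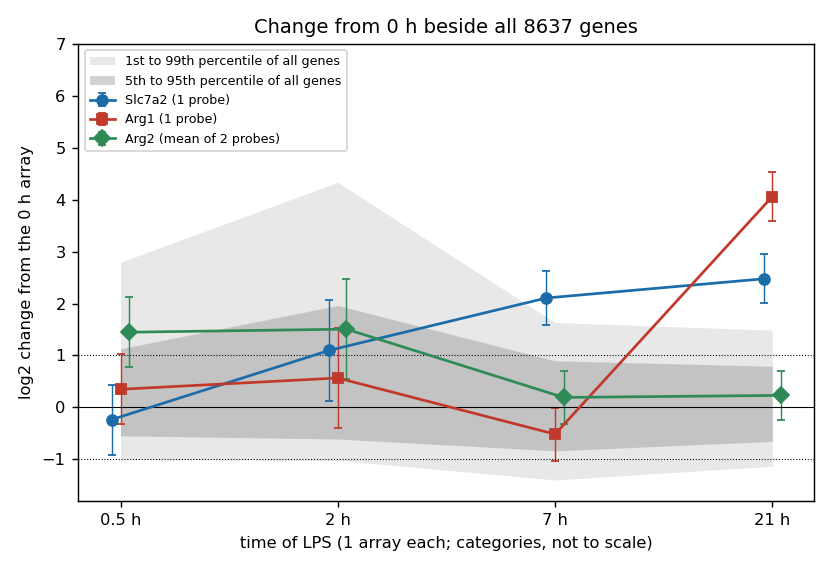
Log2 change from the 0 h array (vertical axis) at 0.5, 2, 7 and 21 h of LPS (horizontal axis, categories) for the 3 genes, over grey bands that span the 5th to 95th and the 1st to 99th percentile of all 8637 genes; bars are the pooled SD over probes of one gene at that time, from 0.47 to 0.97, and dotted lines mark 2-fold. Slc7a2 (2.11 and 2.48) lies above both bands at 7 h and 21 h, and Arg1 (4.06) at 21 h.

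Arg1, the cytosolic arginase gene, had log2 ratios of 0.047 at 0 h, 0.39 at 0.5 h, 0.61 at 2 h, -0.47 at 7 h and 4.11 at 21 h. The first 4 arrays kept it near the typical probe, and only the last showed a high value. Its ratio stood between percentiles 22.2 and 74.9 of all genes on the first 4 arrays and at percentile 99.8 at 21 h.

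The log2 change of Arg1 from 0 h was 0.35 at 0.5 h, 0.57 at 2 h, -0.52 at 7 h and 4.06 at 21 h, or 0.516, 0.585, 1.01 and 8.62 pooled SDs. The 3 earlier changes are within the spread. At 21 h Arg1 had the 3rd largest change of all genes. Against 7 h the 21 h signal was 23.9-fold higher (log2 difference 4.58), the largest such difference of all 8637 genes, where 1.82% of genes were at least 2-fold higher. Against the 2 h array the difference was 3.50, the 2nd largest.

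Ordered by level, Arg1 ran 7 h, 0 h, 0.5 h, 2 h and 21 h, and among neighbours only 2 h and 21 h differed beyond the spread (3.47 pooled SDs). Being at least 2-fold higher at 21 h and within 2-fold of 0 h at all 3 earlier times was shared by 70 genes (0.810%), again a course defined after the values were seen. The median change of those 70 genes at 21 h was 1.20, and Arg1 had the largest. The next were Hmox1, which encodes the haem-degrading enzyme heme oxygenase, at 4.74-fold, and Rflnb at 4.38-fold.

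The Arg1 probe lies in an affected block, most of whose probes were less than 2-fold above 0 h at 21 h. The share of its 86 measured probes at least 2-fold over 0 h was 12.8% at 0.5 h, 27.9% at 2 h, 2.33% at 7 h and 5.81% at 21 h. Of all genes 5.95%, 12.4%, 4.08% and 3.05% were in order of time. These are shares of gene means rather than of single probes, and the marking rule itself asks for a high block share at 0.5 h or 2 h. The block's median changes were 0.15, 0.28, -0.30 and -0.045 at these times, and the Arg1 probe ranked 34th, 32nd, 61st and 1st in it. With each array centred on the block median, the change of Arg1 was 0.14 at 0.5 h, 0.17 at 2 h, -0.12 at 7 h and 3.99 at 21 h.

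Arg1 is a liver enzyme, and the embryo RNA includes liver. The median of 9 measured liver and yolk sac markers was -2.45 at 0 h, -2.66 at 7 h and -2.23 at 21 h. That of 7 measured neutrophil markers was 0.22, 0.21 and -0.27 on the same arrays, with single genes on both sides of 0. Of these 7, 4 lay above the array median at 0 h and 2 at 21 h. Mmp9, which is on the neutrophil list, had a change of 1.86 from 0 h at 21 h. The part of liver or neutrophil RNA in the 21 h value of Arg1 was not tested.

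**Figure D3:**
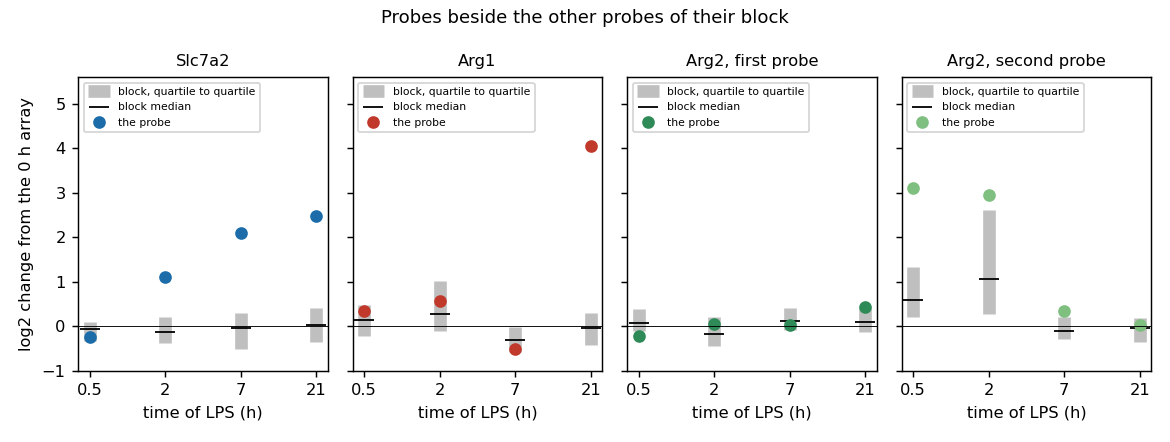
Log2 change from the 0 h array (vertical axis) at 0.5, 2, 7 and 21 h of LPS (horizontal axis) for each of the 4 probes (coloured points) beside the measured probes of its block, whose median is a black dash and whose interquartile range is a grey bar. The blocks of Slc7a2, Arg1 and the first Arg2 probe keep medians between -0.30 and 0.28 at every time, whereas that of the second Arg2 probe has medians of 0.60 at 0.5 h and 1.06 at 2 h.

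Arg2, the mitochondrial arginase gene, was read by 2 probes that were annotated with the same transcript. The first probe had log2 ratios of 0.016 at 0 h, -0.20 at 0.5 h, 0.068 at 2 h, 0.045 at 7 h and 0.45 at 21 h. The second probe had 1.09, 4.2, 4.05, 1.44 and 1.12 at these times. The first thus stayed close to the typical probe on all arrays, while the second was high on the 0.5 h and 2 h arrays and near its 0 h value on the last 2.

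The change from 0 h on the first Arg2 probe was -0.21, 0.052, 0.029 and 0.43 in order of time, at most 0.912 pooled SDs. On the second probe it was 3.11 (8.63-fold), 2.96 (7.79-fold), 0.35 and 0.032. The mean of the probes gave 1.45 at 0.5 h (SD over probes 2.35, n = 2) and 1.51 at 2 h (SD 2.06), so the early means are smaller than the disagreement behind them. At 7 h the mean was 0.19 (SD 0.23) and at 21 h 0.23 (SD 0.28). By these means Arg2 counts as at least 2-fold higher at 0.5 h and at 2 h, while the first probe alone does not. Quantile normalization ended both calls, with means of 0.59 and 0.44.

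Ordered by the mean ratio, the arrays ran 0 h (0.55), 7 h (0.74), 21 h (0.78), 0.5 h (2.0) and 2 h (2.06). No 2 neighbours differed by more than the spread of single probes, with 1.65 pooled SDs between 21 h and 0.5 h. Among the other pairs only 0.5 h against 0 h exceeded it (2.15 pooled SDs), on a mean of 2 probes that disagreed. A spread for means of 2 probes, which would be narrower, was not computed. On the first probe the order was 0.5 h, 0 h, 7 h, 2 h and 21 h, also with no neighbours beyond the spread. On the second probe it was 0 h, 21 h, 7 h, 2 h and 0.5 h, and there 7 h and 2 h differed beyond the spread (2.52 pooled SDs). The order of times in Arg2 thus differed between its probes.

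The block of the second Arg2 probe was high at the same times. The share of its 87 measured probes at least 2-fold over 0 h was 37.9% at 0.5 h and 50.6% at 2 h, then 3.45% at 7 h and 2.30% at 21 h. The Arg2 probe ranked 5th and 18th in it at 0.5 h and 2 h. After centring on blocks this probe and its partner averaged 1.10 at 0.5 h and 0.97 at 2 h. In the block of the first probe 0% of 94 measured probes at 0.5 h and 1.06% at 2 h were at least 2-fold higher.

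The direction of this disagreement was the more frequent one among genes read on both sides. Of 853 genes with 1 of their 2 probes inside an affected block and 1 outside, the inside probe was at least 2-fold above its partner in 146 at 0.5 h and in 229 at 2 h, and at least 2-fold below it in 25 and 38. The blocks were marked by high early values, which widens this contrast. At 7 h the counts were 54 above and 74 below. The Arg2 probes differed by 3.32 at 0.5 h and 2.91 at 2 h, and 46 and 114 of the 1863 genes with exactly 2 probes had a difference at least as large, Arg2 included. The part of the block in the early values of the second Arg2 probe was not tested.

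The probe shared with Vti1b, a gene of vesicle fusion, had log2 ratios of 0.29, 0.27, 0.35, 0.61 and 1.12 in order of time. Its change was -0.019 at 0.5 h and 0.060 at 2 h, close to the first Arg2 probe, and 0.32 at 7 h and 0.83 (1.78-fold) at 21 h. Its reading cannot be assigned to either gene.

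In count, 1 of the 3 genes was at least 2-fold higher at 0.5 h (Arg2, by the mean of its probes), where 5.95% of all genes were (1.28% without the affected blocks). At 2 h there were 2 of 3 (Slc7a2 and Arg2), where 12.4% of all genes were (4.22% without the affected blocks), and under quantile normalization neither remained past 2-fold. At 7 h it was 1 of 3 (Slc7a2), beside 4.08% (4.52%), and at 21 h 2 of 3 (Slc7a2 and Arg1), beside 3.05% (2.55%). These counts of 3 are over all probes and do not match the shares without the affected blocks. There Arg1 has no value, and Arg2 rests on its first probe, below 2-fold at every time (-0.21 at 0.5 h and 0.052 at 2 h). Slc7a2 is then the only member at least 2-fold higher, at 2, 7 and 21 h. Over all probes none of the 3 was at least 2-fold lower at any time, where 1.01%, 1.10%, 3.16% and 1.45% of all genes were in order of time.

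The genes with the most similar course were ranked by the Euclidean distance between their 4 log2 changes and those of the member. The 5 nearest to Slc7a2 were Serpinb2 (distance 0.519), Slc2a13 (0.800), Sod2 (0.921), Nat8l (0.946) and Irf7 (0.953). Serpinb2, which encodes a plasminogen activator inhibitor, had changes of -0.43, 1.24, 2.27 and 2.90, and Sod2, the mitochondrial superoxide dismutase gene, 0.50, 1.65, 2.19 and 2.46. Nat8l and the interferon regulatory factor gene Irf7 had no probe in an affected block, and Serpinb2 and Slc2a13 had their single probes there. All 4 changes share the 0 h array, so that a low reading there would raise all of them.

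The 5 genes nearest to Arg1 were farther off, at distances from 1.78 to 2.39. They were, from the nearest, the interferon-induced gene Ifit3, the scavenger receptor gene Marco, Samsn1, the gelatinase gene Mmp9 and Rflnb. Mmp9 is also on the list of neutrophil markers. Marco came closest in size at 21 h with a change of 3.96, but it already stood at 1.03 at 7 h, and Ifit3 had 1.22 and 1.14 at 0.5 h and 2 h. The 5 nearest to the mean of Arg2 were Tars2 (a mitochondrial threonyl-tRNA synthetase gene), Rab32, Ifrd1, Wdr5 and Zdhhc24, at distances from 0.119 to 0.299, and 3 of the 5 had all their probes in affected blocks. Slc7a2 was the 76th nearest gene to Arg1, and Arg1 the 2372nd nearest to Slc7a2.

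Around the members, 38 other genes of arginine uptake and use or of the Slc7 family were measured of the 71 listed. They include Slc7a4, Slc7a10 and Slc7a13, which were listed apart from the arginine transporters and are left out of the figure. The lists were chosen with earlier results of these data known. At 7 h and at 21 h 1 of the 38 was at least 2-fold higher, where 4.08% and 3.05% of all genes were, and none was lower, where 3.16% and 1.45% were. Their median change was 0.0052 at 7 h and 0.072 at 21 h, where that of all genes was -0.000287 and 0.022. At 0.5 h 3 of the 38 were higher, where 5.95% of all genes were, and at 2 h again 3, where 12.4% were, with 0 lower at both times. These were Sat2, Slc14a1 and Gamt at 0.5 h and Sat2, Slc14a1 and Smox at 2 h. Without the affected blocks 1 of 28 was higher at each of these times, Gamt at 0.5 h and Smox at 2 h, where 1.28% and 4.22% of all genes were.

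**Figure D4:**
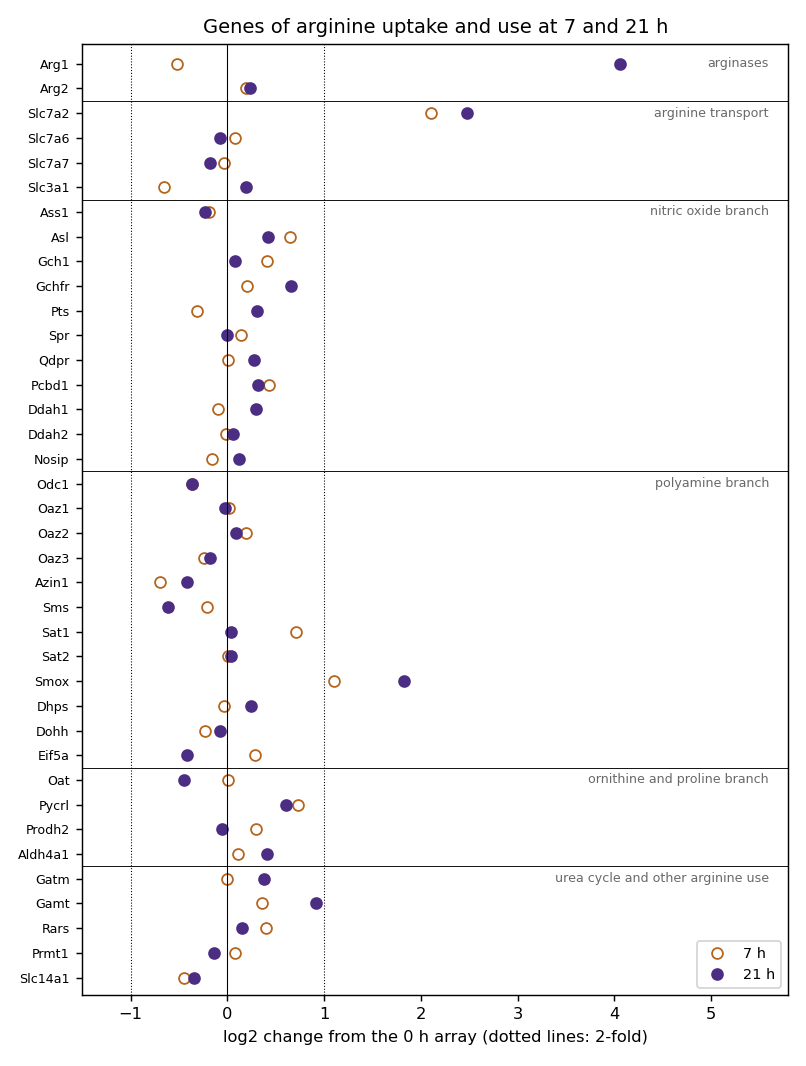
Log2 change from the 0 h array (horizontal axis) at 7 h (open circles) and 21 h (filled circles) for the arginases and the measured genes of arginine transport, nitric oxide synthesis, polyamines, ornithine and proline, and other arginine use (rows); dotted lines mark 2-fold. Beside Slc7a2 (2.11 and 2.48) and Arg1 (-0.52 and 4.06), Smox (1.11 and 1.83) is the only gene beyond the dotted lines.

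Of the other arginine transporters 3 were measured and none was 2-fold from 0 h at any time. Slc7a7 and Slc7a6, the light chains of exchangers that carry arginine out of cells, had changes at 21 h of -0.18 and -0.07. At 0 h their log2 ratios were 1.61 and -0.40. The heavy chain gene Slc3a1 had changes of -0.65 at 7 h and 0.19 at 21 h. Slc7a3, a further cationic transporter, was read on 4 arrays only and has no 0 h value. Slc7a1 and Slc3a2 had no value here.

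On the nitric oxide side, 11 of 15 listed genes were measured and 0 were 2-fold from 0 h at any time. Nos2, the inducible nitric oxide synthase gene, was not analysed here. Ass1 and Asl, whose products rebuild arginine from citrulline, had changes of -0.18 and 0.64 at 7 h and of -0.23 and 0.42 at 21 h. Gch1, the entry enzyme of tetrahydrobiopterin synthesis, the cofactor of nitric oxide synthase, had its largest change at 2 h with 0.61. The probes of Ass1, Asl and Gch1 lay outside the affected blocks.

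On the arginase side, downstream of ornithine, Smox was the one gene beyond 2-fold at 7 h and 21 h. Smox encodes spermine oxidase, which turns the polyamine spermine back into spermidine. Its log2 change was -0.19 at 0.5 h, 1.03 at 2 h, 1.11 at 7 h and 1.83 (3.55-fold) at 21 h, on 1 probe outside the affected blocks. It was thus at least 2-fold above 0 h at the same 3 times as Slc7a2, and was the 18th nearest gene to it (distance 1.20). At 2 h, however, the Smox change was within the spread by both yardsticks (SD 0.97 over all probes and 0.55 outside affected blocks). Odc1, the ornithine decarboxylase gene at the entry to polyamine synthesis, had changes of -0.54 at 2 h, -0.36 at 7 h and -0.36 at 21 h. Oat, which converts ornithine on the way to proline, had 0.0021 at 7 h and -0.44 at 21 h. Sat2, a relative of the spermidine acetyltransferase gene Sat1, had a mean change of 3.79 at 2 h (SD over 2 probes 5.38), with 1 probe in an affected block.

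Of 20 listed markers of alternative activation 5 were measured, Arg1 included, and at 21 h Arg1 alone of these 5 was 2-fold or more from 0 h, beside 3.05% of all genes higher and 1.45% lower. Retnla, a secreted protein gene induced by interleukin 4, had a change of 0.48 at 21 h, and the chemokine genes Ccl17 and Ccl24 had 0.13 and -0.95. The transcription factor gene Klf4 had -0.09 at 21 h after 1.17 and 1.81 at 0.5 h and 2 h, on a probe in an affected block. Of 6 measured markers of classical activation, Il1a and Cxcl10 were at least 2-fold higher at 21 h (3.05% of all genes), with changes of 5.42 and 3.50, both on probes in affected blocks. The remaining changes at 21 h were 0.43 for Irf1, 0.33 for Ccl5, -0.20 for Ptgs2 and -0.28 for Irf5. Without the affected blocks 0 of 3 were higher, beside 2.55% of all genes.

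Of 16 listed regulators of arginase transcription 7 were measured, and 2 were at least 2-fold higher at 21 h, where 3.05% of all genes were. Without the affected blocks it was 1 of 5, beside 2.55%. The 2 were Hif1a, the hypoxia-inducible factor gene, with a change of 1.94 over 6 probes, all in affected blocks, and Nr1h3, the liver X receptor alpha gene, with 1.13 on 1 probe outside them. Cebpa and Cebpd, which encode C/EBP factors, had changes of 0.26 and 0.38. Pparg had changes of 2.84 and 4.01 at 0.5 h and 2 h and -0.25 at 21 h, on a probe in an affected block. Cebpb and Stat6 had no value here.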

How the data were processed

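The data are 1 deposited table of log ratios of 19828 probes on 5 arrays. Log base, direction and the dye of each channel are not in the labels, and how the authors normalized is not stated in them either. The deposited values were read as log10, since at 0 h they ran from -0.378 to 0.415 between the 5th and 95th percentile, small on a log2 scale for macrophages against embryo. They were multiplied by 3.32 and centred on each array's median, taken over the 18296 probes with a value on every array. Probes were named from the platform annotation of 2008: 14759 carried 1 symbol, 170 several and 4899 were unlisted. Entrez identifiers matched 14628 of those with 1 symbol to the GRCm38.p6 gene table. Named probes (13782) were averaged per gene. No spot intensities were used, so whether a probe was above background is unknown.

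Members, gene lists and tests were chosen with earlier results of these data known. Named were the members, their 5 nearest genes, list genes at least 2-fold from 0 h at 7 h or 21 h, and 12 fixed genes of the pathway; any other gene named was chosen after its values were seen. Affected blocks were defined in an earlier analysis of these data. Computations used Python 3.11.15 with numpy 2.4.6 and pandas 2.3.3, and were tested on simulated data. Alternatives were other centring, the log base, the baseline array, the summary over probes and the probe filter.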

Additional observations from a re-analysis of the deposited data

How the results depend on the processing

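Slc7a2 kept a positive change at 2, 7 and 21 h and Arg1 at 21 h under no centring, quantile normalization, centring on blocks and the 0.5 h baseline. The log2 reading only rescales and cannot change a sign. The filter on probes measured on both arrays could not change these values, since the member probes were measured on every array. Without affected blocks Slc7a2 is necessarily the same, since its only probe lies outside them. Arg1 has no value there, since its only probe lies in one. Under quantile normalization Slc7a2 stood at 2.65 at 7 h and 3.30 at 21 h, Arg1 at 5.59 at 21 h, and Arg2 at 0.59 at 0.5 h and 0.44 at 2 h. Read as log2, all changes are 3.32 times smaller: Slc7a2 0.63 at 7 h and 0.75 at 21 h, Arg1 1.22 at 21 h, Arg2 0.44 at 0.5 h and 0.45 at 2 h. Against the 0.5 h array Arg2 stood at 0.059 at 2 h, -1.26 at 7 h and -1.22 at 21 h. As an alternative chosen after seeing the data, the first Arg2 probe alone gave -0.21 at 0.5 h and 0.052 at 2 h, and the second 3.11 and 2.96. The median over probes is the same as the mean for all 3 genes, as it must be with 1 or 2 probes. Without centring, the median change of all genes was -0.22 at 7 h and -0.12 at 21 h, a shift common to every gene.

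Genes at least 2-fold higher numbered 514, 1071, 352 and 263 in order of time, and lower 87, 95, 273 and 125. Under quantile normalization 221 and 441 were higher at 0.5 h and 2 h, and 262, 352, 475 and 364 lower in order of time. Read as log2, 56, 173, 7 and 8 were higher and 2, 2, 5 and 2 lower. Without affected blocks 77, 253 and 153 were higher at 0.5, 2 and 21 h, and 172 and 65 lower at 7 h and 21 h. Without centring 220 were higher at 7 h, and 510 and 222 lower at 7 h and 21 h. Against 0.5 h 694 were higher at 2 h, and 709 and 627 lower at 7 h and 21 h.

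No paired analysis was possible because each time point has 1 array. Signal over background is unknown, so it cannot be said which ratios rest on dim spots.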
